A study of Arabidopsis thaliana with 3 samples.

Results

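A set of 7 genes known for rapid induction by stress and wounding, of 13356 genes named on the array, was followed on 3 Arabidopsis thaliana arrays. They were chosen by symbol in the probe-to-gene table: STZ, ORA47, WRKY53, CML38, AT4G29780, AT4G27657 and AT3G10930. Values on these arrays took part in the choice, so their differences from wild type are a description and support nothing further. RNA came from whole seedlings at 2 weeks of age, kept at 22 °C under 16 h light and 8 h dark. There was 1 array for each of 3 genotypes: a transgenic plant overexpressing DRB3, a transgenic plant overexpressing DRB2, and the wild type. DRB genes encode proteins that bind double-stranded RNA and are known for roles in small RNA pathways. The labels give no salt, wound or other stress treatment for any of the 3 samples, no promoter for either transgene, no ecotype and no number of plants per sample. The probe sets of DRB2 and DRB3 are unnamed in the gene table used here, so overexpression itself was not checked.

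Plants answer touch, wounding, cold, salt and microbial elicitors with a fast wave of transcription. Calcium influx and protein kinase cascades act first, and transcripts of zinc finger, AP2/ERF and WRKY transcription factors and of calcium sensors then accumulate within minutes and usually decay again.

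Values are MAS5 intensities, a linear scale on which each gene was read by 1 probe set of its own. All 7 probe sets belong to the class designed against a single transcript, and levels of different genes are not compared with each other. A common floor of 109 intensity units marks values too weak to rank. Values under the floor were raised to it before a log2 ratio was taken, so a ratio with 1 weak value is a bound. A gene is said to have fallen or risen where its floored values differed at least 2-fold. With 1 array per genotype there are no replicate errors and no p-values, so precision is limited by the number of arrays. All 7 genes exceeded the floor somewhere, and 5 were above it on all 3.

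Most of the group was lower in both overexpressors than in the wild type, and more so in the DRB3 overexpressor. In the DRB3 overexpressor 5 of the 7 fell: STZ, ORA47, AT4G29780, AT4G27657 and AT3G10930. In the DRB2 overexpressor 3 of the 7 fell: ORA47, AT4G27657 and AT3G10930. CML38 went the other way and was higher in both overexpressors, short of 2-fold, and WRKY53 was lower in both, also short of 2-fold.

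**Figure D1:**
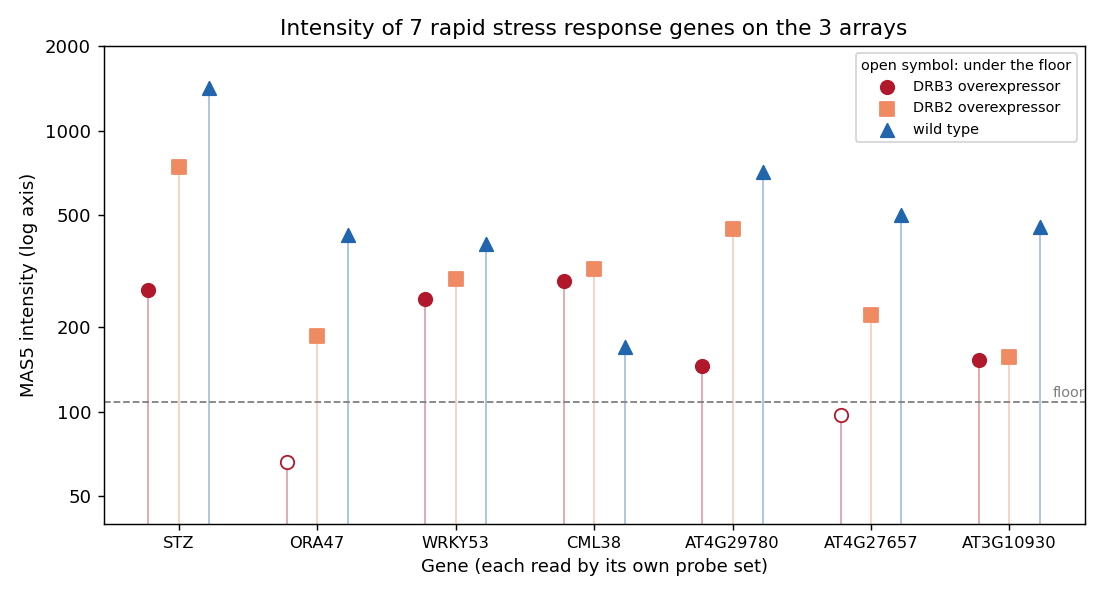
MAS5 intensity (log axis) of each of the 7 genes on the DRB3 overexpressor, DRB2 overexpressor and wild-type arrays, 1 array each, with the floor of 109 as a dashed line and open symbols for values under it. The wild-type symbol is the highest of the 3 for 6 genes and the lowest for CML38, and ORA47 and AT4G27657 lie under the floor in the DRB3 overexpressor.

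Among the transcription factor genes, STZ had the widest gap measured with all values above the floor. STZ, also named ZAT10, encodes a C2H2 zinc finger repressor that is induced by salt, cold, drought and wounding. It read 271 in the DRB3 overexpressor, 743 in the DRB2 overexpressor and 1417 in wild type. The DRB3 overexpressor was the lowest array and the DRB2 overexpressor stood between the other two. STZ was 5.22-fold below wild type in the DRB3 overexpressor, with a log2 ratio of -2.38, and 1.91-fold lower in the DRB2 overexpressor, with a log2 ratio of -0.93. Between the overexpressors STZ was 2.74-fold lower in the DRB3 than in the DRB2 overexpressor. Its log2 ratio over wild type was the lowest but 3, rank 4 of the 6877 genes above the floor in both the DRB3 overexpressor and wild type. In the DRB2 overexpressor it took rank 68 from the lowest, of 6975 genes.

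ORA47 encodes an AP2/ERF activator of jasmonate and abscisic acid synthesis genes and is induced by wounding. It read 66.1 in the DRB3 overexpressor, under the floor, 186 in the DRB2 overexpressor and 425 in wild type. The order of the arrays was that of STZ. Against wild type ORA47 was lower by at least 3.91-fold in the DRB3 overexpressor and by 2.29-fold in the DRB2 overexpressor, where both values were above the floor and the rank was 21 from the lowest of 6975. Its ratio between the overexpressors is a bound, at least 1.71-fold lower in the DRB3 than in the DRB2 overexpressor.

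WRKY53, a WRKY transcription factor gene of defence and leaf senescence, differed least from wild type of the 7. It read 252 in the DRB3 overexpressor, 296 in the DRB2 overexpressor and 394 in wild type. The 3 values keep the order seen for STZ and ORA47 but lie close together. WRKY53 had a log2 ratio of -0.65 in the DRB3 overexpressor over wild type and of -0.41 in the DRB2 overexpressor over wild type. These took ranks 552 of 6877 and 749 of 6975 from the lowest, so many other genes had ratios at least as low.

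CML38 encodes a calmodulin-like calcium sensor whose transcript is induced by wounding, touch and low oxygen. It read 292 in the DRB3 overexpressor, 322 in the DRB2 overexpressor and 170 in wild type. Wild type was the lowest array, and the overexpressors were close to each other. CML38 was 1.71-fold higher in the DRB3 overexpressor than in the wild type, a log2 ratio of 0.78, and 1.89-fold higher in the DRB2 overexpressor, with a log2 ratio of 0.92. It ranked 306 of 6877 from the highest in the first comparison and 74 of 6975 in the second.

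The remaining 3 genes carry only a locus name in the tables used here, with no annotated role. AT4G29780 read 146 in the DRB3 overexpressor, 447 in the DRB2 overexpressor and 713 in wild type. It was 4.89-fold below wild type in the DRB3 overexpressor, rank 5 of 6877 from the lowest and next to STZ, and 1.60-fold lower in the DRB2 overexpressor. Of the 7 genes it had the lowest ratio between the overexpressors: it was 3.06-fold lower in the DRB3 than in the DRB2 overexpressor, rank 6 of 6982.

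AT4G27657 read 97.3 in the DRB3 overexpressor, under the floor, 222 in the DRB2 overexpressor and 501 in wild type. Against wild type the DRB3 overexpressor was lower by at least 4.61-fold and the DRB2 overexpressor by 2.26-fold, rank 22 of 6975. The order of the arrays was again the same. Between the overexpressors it was lower by at least 2.04-fold in the DRB3 overexpressor, which is just past the threshold.

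AT3G10930 kept this order by a narrow margin. It read 152 in the DRB3 overexpressor, 157 in the DRB2 overexpressor and 454 in wild type, so the overexpressors were nearly level with each other. AT3G10930 was 2.98-fold below wild type in the DRB3 overexpressor and 2.90-fold lower in the DRB2 overexpressor. In the DRB2 overexpressor this was rank 4 of 6975 from the lowest and the lowest log2 ratio of the 7, -1.54, whereas in the DRB3 overexpressor the gene was rank 24 of 6877.

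**Figure D2:**
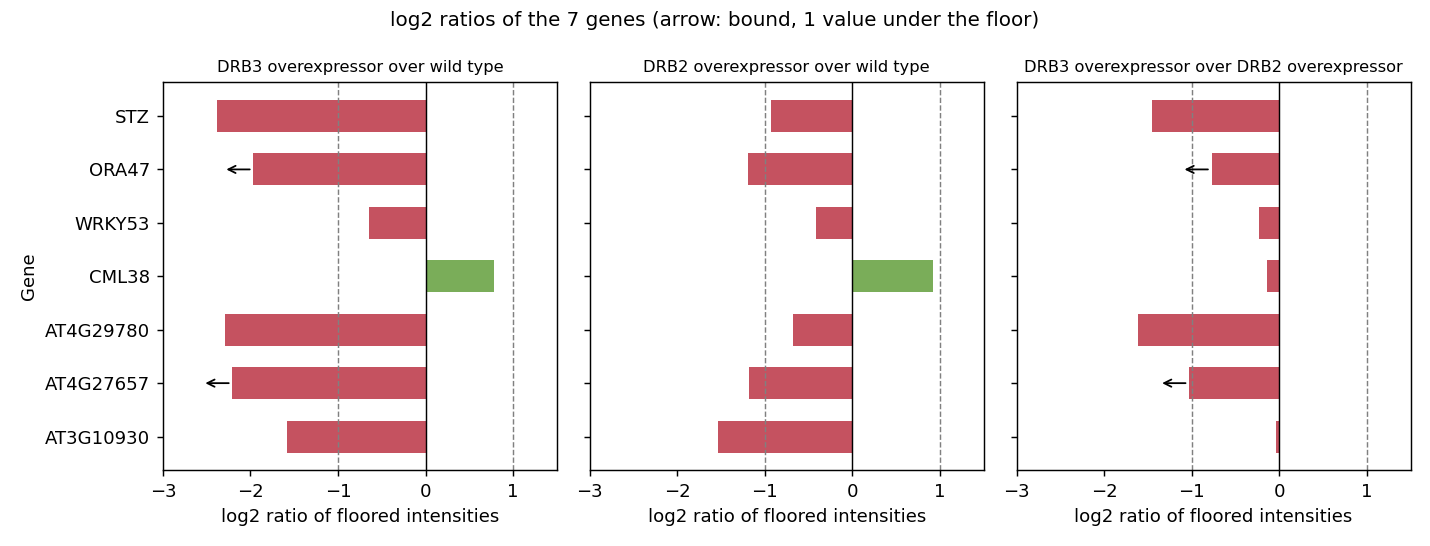
Horizontal bars give the log2 ratio of floored intensities for each of the 7 genes in 3 comparisons, with dashed lines at 2-fold and an arrow where the ratio is a bound. The bars of 5 genes pass the lower line in the DRB3 overexpressor over wild type, those of 3 genes do so in each of the other comparisons, and only CML38 has bars above 0.

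Counted over the group, 5 of 7 genes fell in the DRB3 overexpressor against wild type and none rose, where 1.53% of the 13356 named genes fell and 1.44% rose. Of the 7766 named genes that exceeded the floor on 1 array or more, 2.64% fell and 2.47% rose. The median log2 ratio was -1.97 over the 7 genes, with a range from -2.38 to 0.78, and 0.00 over all named genes. Genes under the floor on all arrays have a floored ratio of 0.00 by construction. Over the 7766 genes that exceeded it somewhere the median was also 0.00. That median of -1.97 is the ratio of ORA47, which is a bound, as is the ratio of AT4G27657. The median and the low end of the range therefore depend on the floor: ORA47 was at -2.68 with the floor at percentile 20. In the DRB2 overexpressor against wild type 3 of 7 fell and none rose, beside 0.412% of all named genes that fell and 0.532% that rose. Of the 7766 genes over the floor somewhere, 0.708% fell and 0.914% rose. The median over the 7 was -0.93, with a range from -1.54 to 0.92, 0.00 over all named genes and 0.01 over those 7766. The wild-type array is shared by both comparisons, so they are not separate evidence, and since the values took part in the choice of genes, nothing is read from these shares.

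The DRB3 over DRB2 overexpressor comparison does not use the wild-type array but shares an array with each of the others, and its log2 ratio is the difference of theirs, so it is no separate evidence either. Here STZ, AT4G29780 and AT4G27657 fell, 3 of 7, and none rose, beside 0.614% of all named genes that fell and 0.577% that rose. Of the 7766 genes over the floor somewhere, 1.06% fell and 0.992% rose. The call of AT4G27657 was lost with quantile normalization (log2 ratio -0.995) and with loess (-0.94), leaving 2 of 7, and with the floor at percentile 60 that of AT4G29780 was lost too (-0.56), leaving 1 of 7. All 7 log2 ratios were below 0, from -1.61 for AT4G29780 to -0.04 for AT3G10930, with a median of -0.77 against 0.00 over all named genes. Those of AT3G10930, CML38 (-0.14) and WRKY53 (-0.23) were small. Over the 7766 genes the median was -0.01. The median of -0.77 is the ratio of ORA47, a bound that depends on the floor and was -1.49 with the floor at percentile 20. The order of the DRB3 overexpressor lowest, the DRB2 overexpressor between and wild type highest held in 6 of the 7 genes, and in 21.2% of those 7766 genes. This order was counted on deposited values without the floor. ORA47 and AT4G27657 thus count with a DRB3 overexpressor value under the floor. Only 6779 of the 7766 genes were above the floor on all arrays, so the share rests in part on weak values.

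The group does not form 1 pattern. The distance between 2 genes was measured over their pair of log2 ratios over wild type, which come from only 3 arrays, for the 5 genes above the floor on all 3. STZ and AT4G29780 were 0.27 apart, while CML38 was 3.66 from STZ and 1.95 from WRKY53, its nearest of the group. AT3G10930 lay 1.01 from STZ. Of the 6779 named genes above the floor on all arrays, the 3 nearest to STZ were AT1G19960, AT4G29780 and AT1G08310, at distances of 0.12, 0.27 and 0.33. AT1G19960 read 553 in the DRB3 overexpressor, 1401 in the DRB2 overexpressor and 2649 in wild type. The nearest to AT4G29780 were AT1G08310, AT1G19960 and STZ itself, so these 4 genes stood close together at the low end.

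AT1G08310 read 111 in the DRB3 overexpressor, just over the floor, 346 in the DRB2 overexpressor and 534 in wild type. The nearest to AT3G10930 were AT5G02830, AT3G03790 and AT1G28570, at 0.10, 0.29 and 0.37. AT5G02830 read 395 in the DRB3 overexpressor, 388 in the DRB2 overexpressor and 1103 in wild type, the same near-level pair of overexpressors. The nearest to CML38 were AT4G13270, AT5G48540 and AT1G33055, all within 0.074, and those to WRKY53 were AT1G53120, AT2G21340 and AT1G19000, all within 0.023. The region around WRKY53 is dense with genes of small ratios, so closeness there says little.

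Few other genes of the same kind could be set beside the group. Of 122 further genes listed for zinc finger, WRKY, ERF and DREB, touch, jasmonate and elicitor responses and as near relatives, 15 had a named probe set, and 3 of these were under the floor on all arrays. None of the 21 ERF and DREB genes and none of the 25 jasmonate genes was among them, so the synthesis genes that ORA47 is known to activate were not analysed here. Of the 15, 1 fell (AT4G27652, a chromosomal neighbour of AT4G27657) and none rose in the DRB3 overexpressor against wild type, with a median log2 ratio of 0.14, and none fell and 1 rose in the DRB2 overexpressor, with a median of 0.00. The measured C2H2 list gene, AT2G28200, read 294 in the DRB3 overexpressor, 414 in the DRB2 overexpressor and 365 in wild type, so wild type stood between the overexpressors, unlike for STZ.

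WRKY22, a WRKY factor gene of elicitor signalling, rose in the DRB2 overexpressor. It read 175 in the DRB3 overexpressor, 329 in the DRB2 overexpressor and 159 in wild type, 2.07-fold higher in the DRB2 overexpressor than in the wild type. WRKY6 read 165, 135 and 136 on the same arrays in that order. Of the 6 named WRKY genes other than WRKY53, a family list added after the values were seen, none fell in either overexpressor, and the median log2 ratio was 0.07 in the DRB3 and 0.00 in the DRB2 overexpressor over wild type. WRKY20 had the lowest ratio in the DRB3 overexpressor, -0.53, which is close to that of WRKY53.

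Among the other named calmodulin-like genes, no floored ratio over wild type was as large as those of CML38. Of 7 other named CML genes, likewise listed after the values were seen, none passed 2-fold in any comparison and 2 were under the floor on all arrays, CML37 and AT1G76640, which the gene table also names CML39. CML42 read 370 in the DRB3 overexpressor, 345 in the DRB2 overexpressor and 285 in wild type, so it too was lowest in wild type, with log2 ratios of 0.38 and 0.28. CML30 read 164, 158 and 146 on the same arrays in that order, likewise lowest in wild type. So was CML43 at 99.0, 133 and 66.6, with its DRB3 overexpressor and wild-type values under the floor. CML23 read 202 in the DRB3 overexpressor, 116 in the DRB2 overexpressor and 178 in wild type, so the DRB2 overexpressor was lowest. The same held for CML41, at 134, 111 and 115 on those arrays. In the touch and calcium-binding list, of which 6 of 13 genes were measured, no gene passed 2-fold and 3 were under the floor on all arrays.

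Of the other wound- or elicitor-induced genes 4 of 32 were measured, and none passed 2-fold in any comparison. BIK1, a kinase gene of immune receptor complexes, read 769 in the DRB3 overexpressor, 910 in the DRB2 overexpressor and 690 in wild type. PUB22, PUB23 and PUB24, genes for U-box ubiquitin ligases that dampen immune signalling, were near the floor on all arrays, between 97.1 and 179. Their highest reading was on the DRB2 overexpressor array in each case, not on the wild-type array.

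**Figure D3:**
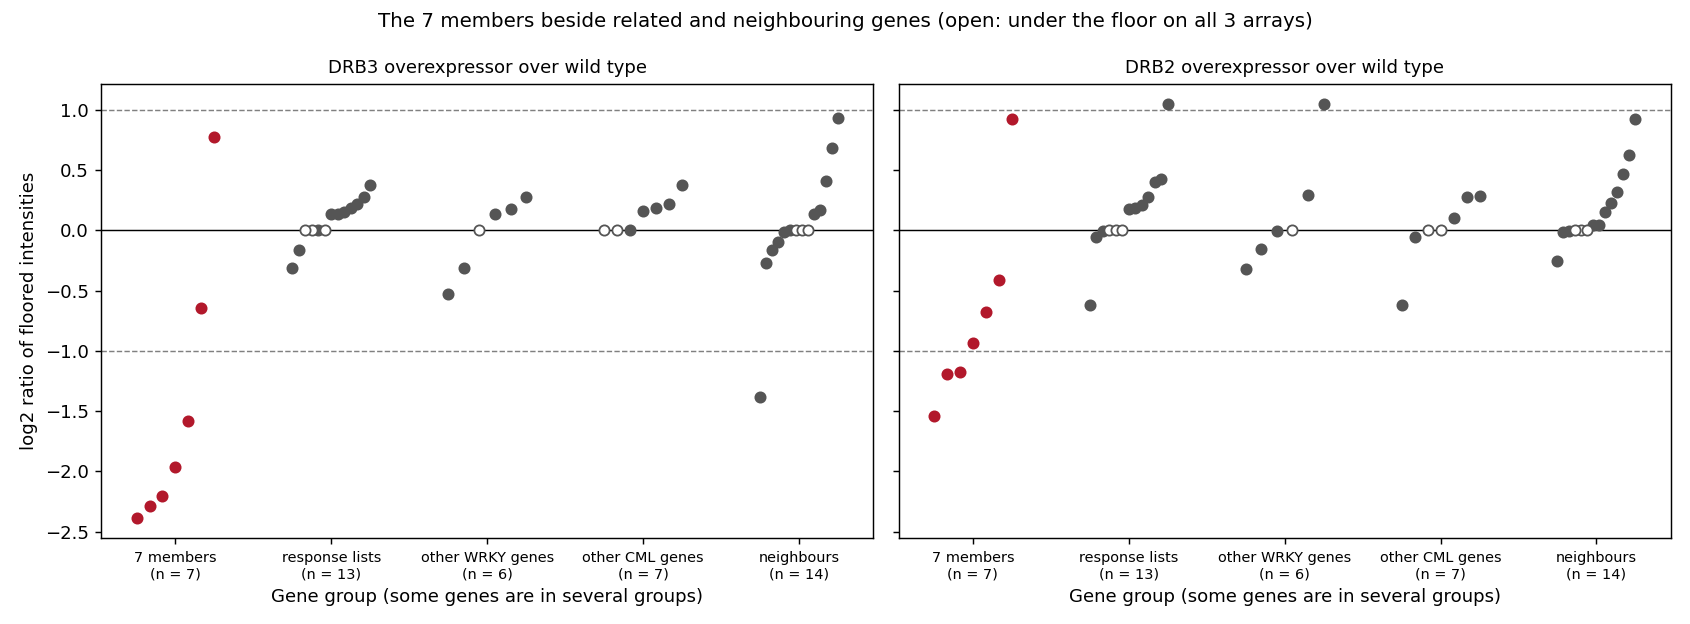
Each point is the log2 ratio of floored intensities of 1 gene in the DRB3 overexpressor (left) and the DRB2 overexpressor (right) over wild type, for the 7 members, 13 genes of the response lists without the near relatives, 6 other WRKY genes, 7 other CML genes and 14 chromosomal neighbours, with dashed lines at 2-fold and open points for genes under the floor on all 3 arrays. In the left panel 5 members lie under the lower line, together with AT4G27652, drawn among the neighbours and also listed as a near relative.

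Genes next to the members were examined by order on the chromosome alone, with 2 protein-coding genes on each side, after the members' values were known. Of 28 such neighbours 14 had a named probe set and 11 were above the floor on at least 1 array. AT4G27652, a neighbour of AT4G27657 with 1 gene between them, fell in the DRB3 overexpressor. It read 137 in the DRB3 overexpressor, 299 in the DRB2 overexpressor and 356 in wild type, 2.60-fold below wild type in the DRB3 overexpressor, with a log2 ratio of -0.25 in the DRB2 overexpressor. The gene between them, AT4G27654, read 41.3 and 86.4 in the DRB3 and DRB2 overexpressors, both under the floor, and 109.5 in wild type, just above it. Sequence likeness among these 3 genes was not examined, so how far their probe sets read each other's transcripts was not tested.

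CML38 also had a neighbour with values like its own. AT1G76660, the next gene on one side, read 243 in the DRB3 overexpressor, 288 in the DRB2 overexpressor and 151 in wild type. Its pair of log2 ratios over wild type, 0.68 and 0.93, put it at rank 7 of 6778 genes by closeness to CML38. The gene on the other side, AT1G76640, was under the floor on all arrays. The 3 measured neighbours of ORA47 had log2 ratios between -0.27 and 0.47 over wild type. 3xHMG-box2, which overlaps WRKY53 in the annotation, read 479 in the DRB3 overexpressor, 542 in the DRB2 overexpressor and 435 in wild type, an order unlike that of WRKY53. By closeness to WRKY53 it took rank 4814 of 6778, and the neighbours AT4G23820 and AT4G23840 took ranks 6598 and 4147. AT4G23820 was higher in both overexpressors, with log2 ratios of 0.93 and 0.62 over wild type. AT4G29790, next to AT4G29780, took rank 3228 by closeness to that gene.

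Several other measures differed between the arrays, and their part in the results was not tested. Control transcripts are read at both ends, and their 3′ over 5′ ratio, which rises as RNA or its labelling is less complete, was lowest in the DRB3 overexpressor and highest in wild type in 6 of 6 control pairs. For GAPDH it was 3.89 in the DRB3 overexpressor, 5.77 in the DRB2 overexpressor and 9.31 in wild type. All these pairs read GAPDH, actin or ubiquitin on the same 3 arrays, so they are not separate observations. In 1 ubiquitin pair the DRB2 overexpressor (4.61) and wild type (4.66) were nearly level. The DRB2 overexpressor array stood apart in some other controls. Its 25S ribosomal RNA probe set read 3603, against 11339 in the DRB3 overexpressor and 12982 in wild type. The median of 24 poly(A) spike-in probe sets was 171 in the DRB3 overexpressor, 56.1 in the DRB2 overexpressor and 223 in wild type. That of 18 hybridisation control probe sets was 1185, 1114 and 1411 in the same order, so there the overexpressors were close and wild type highest. The clock gene GI, the 1 measured of 13 clock genes, read 449 in the DRB3 overexpressor, 290 in the DRB2 overexpressor and 197 in wild type. Of 14 heat shock genes 3 were measured, and 2 of these were under the floor on all arrays. The other, the heat-induced immunophilin gene AT5G48570, read 687 in the DRB3 overexpressor, 119 in the DRB2 overexpressor and 131 in wild type. It was high in the DRB3 overexpressor alone. Of the tissue markers 1 of 8 for green tissue, 2 of 9 for root and none of 7 for flower and seed were measured. The green tissue marker RCA, for rubisco activase, read 21690 in the DRB3 overexpressor, 29895 in the DRB2 overexpressor and 33718 in wild type. The root hair expansin genes EXPA18 and EXPA7 read 439 and 158 in the DRB3 overexpressor, 278 and 95.1 in the DRB2 overexpressor, and 184 and 52.1 in wild type, with the lower 2 readings of EXPA7 under the floor. In such bulk samples fewer cells of a type and less RNA per cell cannot be told apart.

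The reported values of 2 of the 7 genes rest on the floor. With the floor at percentile 60 of all probe sets, an intensity of 302, only STZ and AT4G29780 fell in the DRB3 overexpressor against wild type and none of the 7 in the DRB2 overexpressor. CML38 then had log2 ratios of 0.00 in the DRB3 and 0.09 in the DRB2 overexpressor over wild type. With the floor at percentile 20, an intensity of 26.7, ORA47 was measured on all 3 arrays and had a log2 ratio of -2.68 in the DRB3 overexpressor over wild type.

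**Figure D4:**
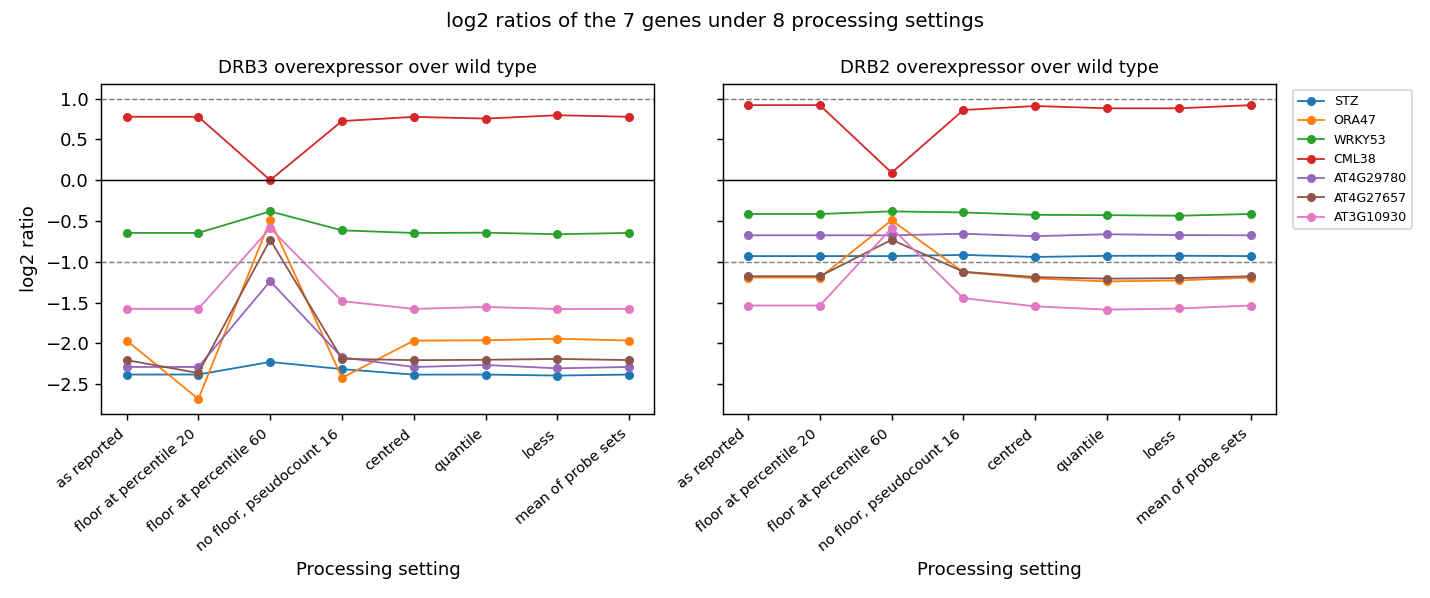
Lines follow the log2 ratio of each of the 7 genes over wild type through 8 processing settings, for the DRB3 overexpressor (left) and the DRB2 overexpressor (right), with dashed lines at 2-fold. The floor at percentile 60 draws most lines toward 0, while STZ stays at -2.23 or lower on the left in all 8 settings.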

How the data were processed

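Labelled cRNA was made from 10 ug of total RNA per sample, 1 sample and 1 array per genotype, and the deposited table holds linear MAS5 intensities for each probe set, per the submitters' processing notes. The sources used here give neither its version nor its scaling target. Each 2% trimmed mean was 500.05 on the overexpressor and wild-type arrays, so values were used as deposited. The series' design text describes another experiment, with a kinase overexpressor and salt, so groups follow each sample's genotype label.

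Of 22810 probe sets, 13513 were listed with 1 gene, 503 with several, which were left out, and 8794 had no name here. The brightest probe set stood for a gene, giving 13356 genes, of which 13286 matched a RefSeq table (TAIR10.1) used for names and gene order only. The floor was the mean over arrays of percentile 40 of non-control probe sets. The members, lists and alternatives were chosen with earlier results of these data known. Named genes were all members, list genes past 2-fold or the largest ratios of a list, and the 3 nearest patterns of each member above the floor on all arrays. Neighbours, 2 family lists, RCA, WRKY6, the expansins and AT1G76640 were named outside that rule after their values were seen. The 2-fold call was tested on simulated data, with larger changes planted only in genes well above the floor. Values near the floor, ratios that are bounds, loess, distances and neighbours were not tested in this way. The alternatives tried were thresholds of 1.5-fold and 3-fold, floors at percentile 20 or 60, a pseudocount of 16 without a floor, averaging probe sets per gene, centring, quantile normalization and loess (span 0.3). The promoter motif search planned was not run, since no sequences were used here. Tables were handled in pandas 2.3.3 and numpy 2.4.6 under Python 3.11.15, loess came from statsmodels 0.14.6, the trimmed mean from scipy 1.17.1 and plots from matplotlib 3.10.9.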

Additional observations from a re-analysis of the deposited data

How the results depend on the processing

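No paired analysis was possible because each genotype has 1 array. Over 7 alternatives and 21 log2 ratios of the members (3 comparisons), 129 of 147 values kept direction and side of 2-fold. A further 4 stayed short of 2-fold but became 0 with the floor at percentile 60: CML38 in the DRB3 overexpressor over wild type, and ORA47, WRKY53 and AT3G10930 between the overexpressors. Part of this agreement was fixed in advance. Averaging probe sets could not move any member, since each has 1 probe set. The floor at percentile 20 could not move genes already above the main floor on all 3 arrays. Centring moved ratios by at most 0.011. For AT3G10930 in the DRB3 over the DRB2 overexpressor the sign turned, to 0.033 with quantile normalization and 0.043 with loess. For AT4G27657 in that comparison the ratio was -0.995 with quantile normalization and -0.94 with loess, short of 2-fold. With the floor at percentile 60 it was 0.00, by construction since both values are then floored, and that of AT4G29780 was -0.56. ORA47 there was -1.49 with the floor at percentile 20 and -1.30 with the pseudocount, past 2-fold. With the floor at percentile 60, the log2 ratios over wild type of ORA47, AT4G27657 and AT3G10930 were -0.49, -0.73 and -0.59 in both overexpressors, since both overexpressor values are then floored.

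Members lower in the DRB3 overexpressor than in the wild type numbered 2 with the floor at percentile 60, and 1 was higher at 1.5-fold. In the DRB2 overexpressor against wild type none was lower with the floor at percentile 60 (0 of 7) or at 3-fold (0 of 7), while 5 were lower and 1 higher at 1.5-fold. In the DRB3 against the DRB2 overexpressor 1 was lower with the floor at percentile 60 and 1 at 3-fold.

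Counts over all named genes depend on how weak signals are treated. In the DRB3 overexpressor against wild type, beside 205 lower and 192 higher, there were 400 and 369 with the floor at percentile 20, 107 and 98 at percentile 60, 512 and 508 with the pseudocount, 747 and 710 at 1.5-fold and 30 and 48 at 3-fold. In the DRB2 overexpressor against wild type, beside 55 and 71, there were in the same order 162 and 429, 24 and 29, 279 and 662, 390 and 453, and 3 and 10. In the DRB3 against the DRB2 overexpressor, beside 82 and 77, there were 404 and 164, 30 and 32, 610 and 261, 510 and 389, and 8 and 13. The cause was not tested.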
